A study of Mus musculus with 6 samples.

Results

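The genes described here are 35 enzymes that carry glucose to lactate or move sugar phosphates into and out of that route. They were chosen by symbol from a fixed list, and every symbol was found among the 55487 genes of the deposited tables. The list was drawn up with earlier results of these data known, so counts of calls among its genes are descriptive. RNA-seq was done on CD8+ T cells of C57BL/6 mice kept for 48 h with 5 mM itaconate (3 libraries) or with NaCl as the control (3 libraries), and no genotype or further agent is named in the labels. Itaconate is a small metabolite produced from aconitate by activated macrophages, and the comparison asks how it changes gene expression in T cells. How the replicates relate to mice or cultures, and how the cells were activated, is not given in the sources used here. The p-values therefore reflect only library-to-library spread, part of which may be technical. The symbol Aldoa stands on 2 rows of the tables, and the second (ENSMUSG00000114515), with 1 to 6 counts in each library, was too low to be tested. All 35 other rows passed the filter on low counts.

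Glycolysis splits glucose into pyruvate in a preparatory phase that spends ATP and a payoff phase that returns it, and lactate dehydrogenase then turns pyruvate into lactate so that the payoff phase can go on. Activated T cells raise this flux sharply even when oxygen is present, and hexokinase, phosphofructokinase-1 and pyruvate kinase are its classical control points. Branches leave at glucose 6-phosphate for glycogen and nucleotide sugars, and galactose and mannose enter through kinases, mutases and isomerases of their own. Many of these genes are targets of hypoxia-inducible factor 1 (HIF-1) and of MYC, factors that bind short DNA elements around the sequence ACGTG.

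Expected counts totalled 18280217 to 31643408 per library. Levels between libraries are given as CPM, counts scaled to a common library size. Cd8a, a chain of the CD8 receptor, was at 472 to 526 CPM in control and rose to 630 to 659 CPM in itaconate libraries (edgeR adjusted p = 0.000297). The summed level of 10 CD8 T cell markers was 6438 to 7138 CPM in control and 7252 to 7774 CPM in itaconate libraries. Most of that sum was Gzmb, a cytotoxic granule protease, which was at 4165 to 4844 CPM in control and rose to 4785 to 5312 CPM with itaconate (edgeR adjusted p = 0.0485). Prf1, the pore-forming protein of the same granules, was at 41.3 to 52.3 and 30.0 to 40.1 CPM (-0.40 ± 0.12, edgeR adjusted p = 0.054). Cd3e, a chain of the T cell receptor complex, was at 168 to 192 CPM in all 6. Of 10 myeloid markers, the sum was 2.41 to 3.14 CPM in control and 3.05 to 7.21 CPM in itaconate libraries. The sum of 4 markers of CD4 and regulatory T cells was 8.60 to 11.7 CPM in control and 18.9 to 23.5 CPM in itaconate libraries. That difference lay mostly in Foxp3, while Cd4 was at 1.998 to 5.79 CPM over all libraries. Foxp3, which marks regulatory T cells, was at 1.46 to 2.60 CPM in control and 10.99 to 15.04 CPM in itaconate libraries. The 6 B cell markers summed to 272 to 292 and 295 to 321 CPM, of which Ighm, an immunoglobulin gene, held at least 258 CPM in every library. The 4 NK cell markers, nearly all Eomes, summed to 96.4 to 108 and 110 to 138 CPM. Eomes rose with itaconate (0.26 ± 0.076, edgeR adjusted p = 0.0477). Klrb1c, Ncr1 and Klra8 were at most at 0.60 CPM in any library, too low to be tested. The 5 red cell and platelet markers summed to at most 3.99 CPM. The part of these markers in the results was not tested. In bulk RNA, fewer cells of a type and less RNA per cell cannot be told apart.

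With itaconate, 13 of the 35 tested enzyme genes fell and 1 rose at an adjusted p under 0.05 (edgeR's quasi-likelihood test, Benjamini-Hochberg adjustment over 12350 genes), and 21 did not pass. Of all tested genes, 5.36% were called lower and 6.68% higher. The fallers on the main route were Hk1, Hk2, Pfkl, Pfkp, Aldoc, Tpi1, Gapdh, Pgk1, Pgam1 and Pkm. The others were the phosphofructokinase activator gene Pfkfb3 and the sugar-phosphate mutases Pgm1 and Pmm2. Apart from Aldoc, the 12 fallers were 9.94% to 21.7% lower in fitted level. The riser was Ugp2, which makes UDP-glucose. The median log2 fold change of the tested members was -0.12, against 0.01 for all tested genes. Among the members with a mean of at least 100 CPM, 10 of 15 (66.7%) fell and 0 rose by this test, where 7.18% of all genes at that level fell and 9.13% rose. CPM did not overlap between the groups for 18 members, 15 of them lower and 3 higher with itaconate, against 31.2% of all tested genes, of which 14.4% were lower and 16.8% higher as shares of all tested.

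Per length, levels of the members ranged widely, and a few enzymes of the main route were among the most abundant mRNAs of the cells. Their levels are given as TPM, which correct for transcript length. The summed TPM of the members was 22445, 22186 and 21687 for control and 18439, 18993 and 18668 for itaconate, each in the order of the replicate numbers. The groups did not overlap, and the itaconate mean was 15.4% lower. TPM ran somewhat lower with itaconate over all genes, with a median of -0.05 on log2(TPM + 1) values. As a share of counts, which is not scaled for length, the members held 2.69% ± 0.036 in control and 2.35% ± 0.087 with itaconate (SD, n = 3). Gapdh was the 9th most abundant gene by TPM in control and the 26th in itaconate libraries, and it carried 32.03% of the difference in the sum. Ldha (15.1%), Pkm (11.9%) and Eno1 (11.5%) carried the next largest parts. The 9 members above 500 TPM held 94.5% of the summed control level. All 9 had negative fold changes, and their TPM did not overlap between the groups in 9 of 9 and their CPM in 7 of 9. Among all tested genes, TPM did not overlap for 17.6% with itaconate lower and 8.83% with itaconate higher.

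**Figure D1:**
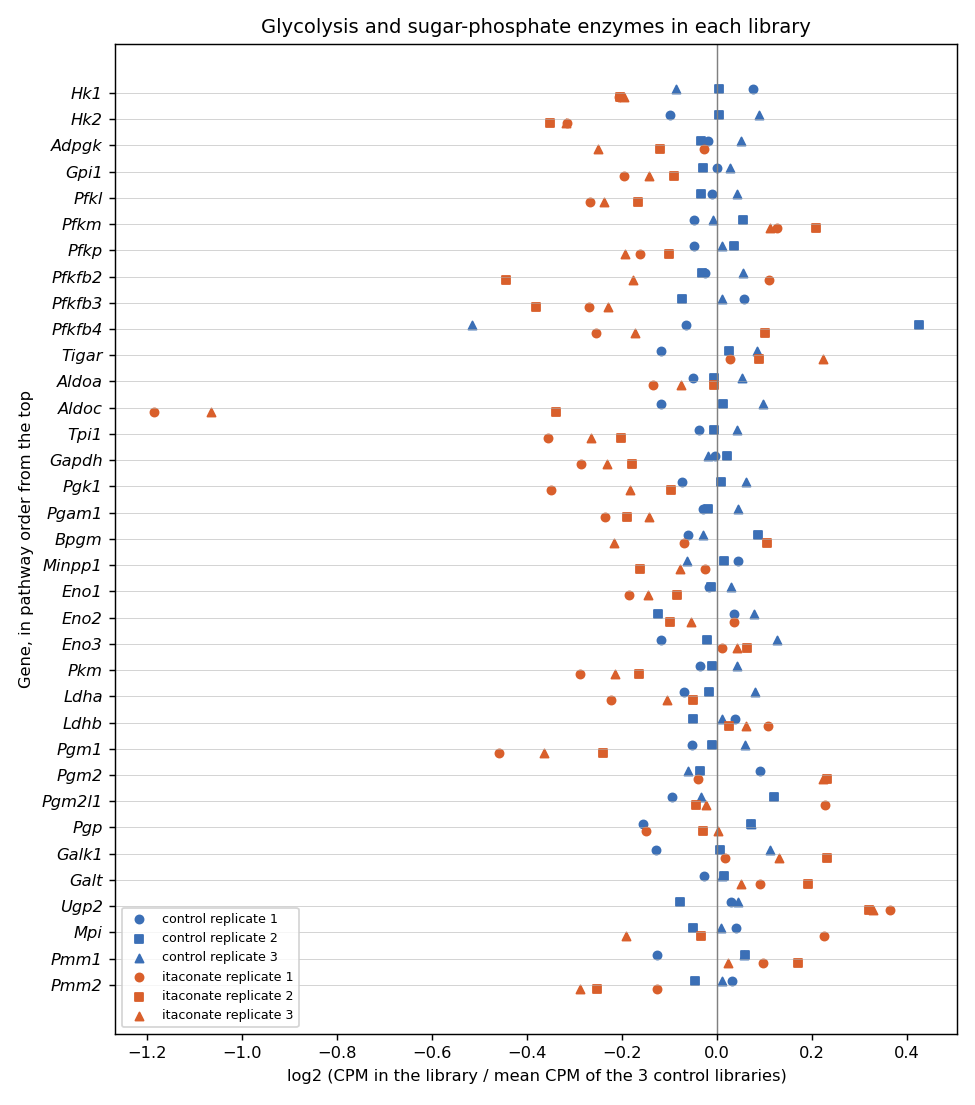
CPM of each tested enzyme gene in each of the 6 libraries, as the log2 ratio to the mean of the 3 control libraries (vertical line at 0), with genes in pathway order from the top. The 13 fallers have all 3 itaconate points left of all 3 control points, and Ugp2 has them to the right.

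Hexokinases trap glucose in the cell as glucose 6-phosphate. Hk2, the inducible mitochondria-bound form, was at 198, 213 and 226 CPM in the control libraries and 171, 167 and 171 CPM in the itaconate libraries. Its itaconate values were all below the lowest control (log2 fold change -0.33 ± 0.052, SE; edgeR adjusted p = 0.00114). Hk1, the housekeeping form, was at 235, 224 and 210 CPM in control and 193, 194 and 195 CPM in itaconate libraries, with a smaller fitted difference (-0.20 ± 0.049, edgeR adjusted p = 0.0164). The call of Hk1 was lost without control replicate 1, control replicate 2, itaconate replicate 2 or itaconate replicate 3 (adjusted p 0.0518 to 0.0697), with an offset for the effective transcript length of each library (0.0629, called the effective length offset from here on) and on log2(TPM + 1) values (limma, 0.0957), whereas that of Hk2 held without any 1 library. Adpgk, which phosphorylates glucose with ADP in place of ATP, was at 54.3 to 57.5 and 46.7 to 54.5 CPM and did not pass (edgeR adjusted p = 0.231).

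Gpi1, the isomerase that makes fructose 6-phosphate, lay just outside the threshold. It was at 1040, 1019 and 1060 CPM in control and 908, 976 and 942 CPM in itaconate libraries, without overlap (-0.14 ± 0.045, edgeR adjusted p = 0.0555). Gpi1 passed in 5 of 17 alternatives, among them DESeq2 (adjusted p = 0.026), and in 0 of the 6 leave-one-out fits. With the effective length offset its value was -0.09 (adjusted p = 0.464).

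Phosphofructokinase-1 commits sugar to glycolysis and is built from liver (Pfkl), muscle (Pfkm) and platelet (Pfkp) type subunits. Pfkl was at 312, 306.8 and 323 CPM in control and 261, 280 and 266 CPM in itaconate libraries, and the groups did not overlap (-0.22 ± 0.046, edgeR adjusted p = 0.00631). Pfkp, the most abundant subunit here at 230.0 ± 9.3 TPM with NaCl and 199 ± 4.4 TPM with itaconate (SD over 3 libraries), fell by less (-0.15 ± 0.046, edgeR adjusted p = 0.0474). Pfkp kept its call when control replicate 1 was left out and lost it in each of the other 5 leave-one-out fits (adjusted p 0.0564 to 0.191), as it did with the effective length offset (0.153) and on log2(TPM + 1) values (limma, 0.0712). Pfkm, at 24.3, 26.1 and 25.0 CPM in control and 27.4, 29.0 and 27.2 CPM in itaconate libraries, lay on the other side of zero and did not pass (0.15 ± 0.074, edgeR adjusted p = 0.212).

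Fructose 2,6-bisphosphate is the strongest activator of phosphofructokinase-1, and its level is set by bifunctional PFKFB enzymes and lowered by the phosphatase Tigar. Pfkfb3, the form with the highest kinase activity, was at 84.8, 77.5 and 82.1 CPM in control and 67.6, 62.5 and 69.5 CPM in itaconate libraries. Every itaconate library was below every control (-0.29 ± 0.060, edgeR adjusted p = 0.00634), and the call held without any 1 library. It was lost on log2(TPM + 1) values (limma, -0.32 ± 0.078, adjusted p = 0.0686). Pfkfb2 and Pfkfb4 were at 1.89 to 3.96 CPM in all 6 libraries, with standard errors of 0.23 and 0.26, so that changes of the size seen for Pfkfb3 were not detectable at this depth. Tigar was at 26.3 to 30.3 and 29.1 to 33.3 CPM and did not pass (0.12 ± 0.080, edgeR adjusted p = 0.389).

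Aldolase cleaves the bisphosphorylated sugar into a pair of trioses. Aldoa, the main form, was at 2162, 2230 and 2321 CPM in control and 2039, 2228 and 2124 CPM in itaconate libraries, with overlap (-0.07 ± 0.048, edgeR adjusted p = 0.384). Aldoc, the brain-type form, was at 13.1, 14.3 and 15.2 CPM in control and 6.24, 11.2 and 6.78 CPM in itaconate libraries. That is the lowest fitted value among the members (-0.83 ± 0.19, edgeR adjusted p = 0.0224), and itaconate replicate 2 lay well above the other itaconate libraries. The call of Aldoc was lost without control replicate 2, control replicate 3 or itaconate replicate 3 (adjusted p 0.0694 to 0.0945), and the fitted value ran from -1.12 without itaconate replicate 2 to -0.68 without itaconate replicate 1.

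Tpi1, which interconverts the trioses, closes the preparatory phase. It was at 1114, 1140 and 1178 CPM in control and 894, 995 and 953 CPM in itaconate libraries. The groups did not overlap (-0.27 ± 0.049, edgeR adjusted p = 0.00285). Tpi1 passed in all 17 alternative analyses, as did Gapdh and Pkm.

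**Figure D2:**
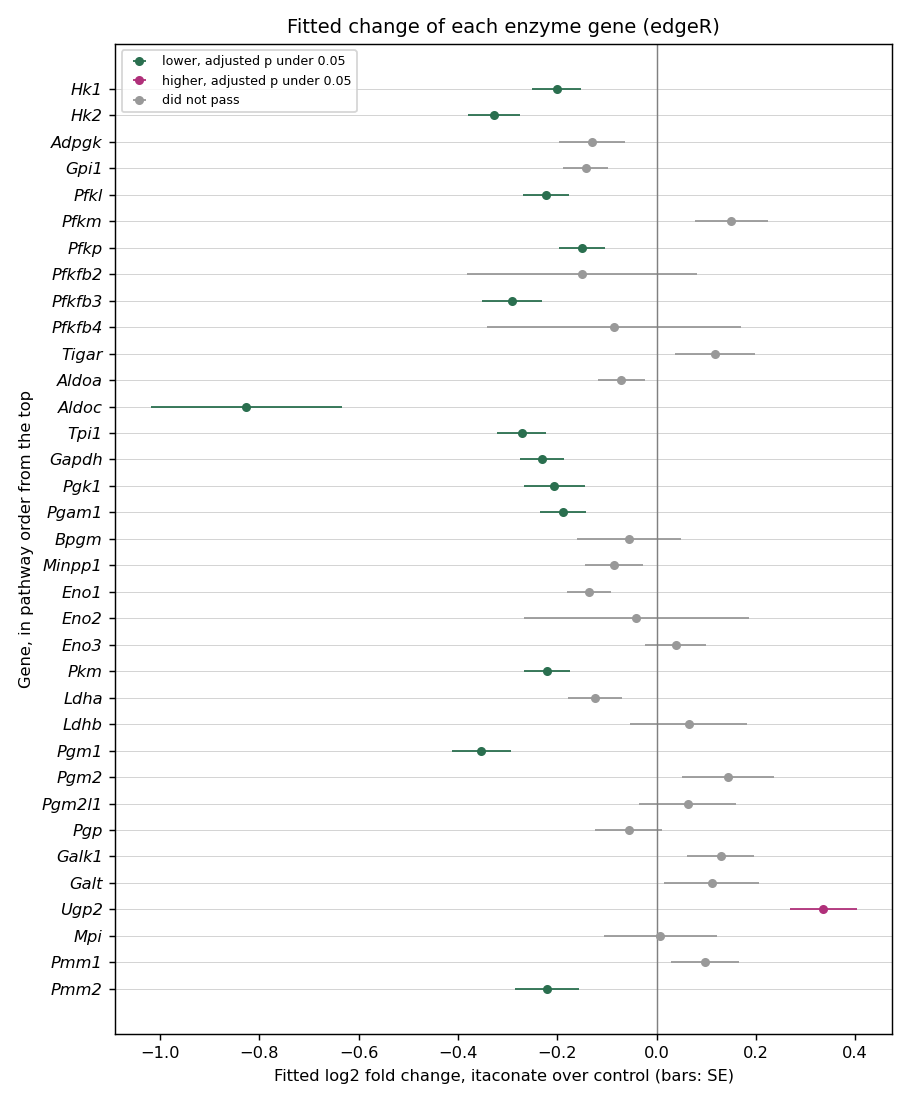
Fitted log2 fold change of itaconate over control for each tested enzyme gene in pathway order (points, with bars of 1 SE). Most genes of the route from Hk1 to Ldha lie left of zero, at or above -0.35 apart from Aldoc, and Ugp2 is the only member called to the right.

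Gapdh opens the payoff phase by making NADH and 1,3-bisphosphoglycerate. It was at 5181, 5268 and 5130 CPM in control and 4258, 4592 and 4421 CPM in itaconate libraries. The highest itaconate library was below the lowest control (-0.23 ± 0.044, edgeR adjusted p = 0.00404). Pgk1, the first ATP-forming kinase, was at 1942, 2054 and 2130 CPM in control and 1601.8, 1909 and 1799 CPM in itaconate libraries (-0.21 ± 0.061, edgeR adjusted p = 0.0446). The highest itaconate library lay just below the lowest control, and the call was lost without control replicate 2, control replicate 3, itaconate replicate 1 or itaconate replicate 3 (adjusted p 0.0982 to 0.144), and with the effective length offset (0.111). Pgam1, the mutase of the next step, was at 904, 910 and 951 CPM in control and 783, 809 and 835 CPM in itaconate libraries (-0.19 ± 0.046, edgeR adjusted p = 0.0156). The call of Pgam1 was lost without itaconate replicate 1 (adjusted p = 0.0645) or itaconate replicate 2 (0.0501).

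Bpgm and Minpp1 make and remove 2,3-bisphosphoglycerate, a side product of this stage. Neither passed, and their groups overlapped (Bpgm -0.06 ± 0.11, edgeR adjusted p = 0.79; Minpp1 -0.09 ± 0.058, edgeR adjusted p = 0.386).

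Enolase forms phosphoenolpyruvate. Eno1, the ubiquitous form, was at 4161, 4173 and 4297 CPM in control and 3705, 3973 and 3810 CPM in itaconate libraries. The groups did not overlap, but the gene missed the threshold (-0.14 ± 0.044, edgeR adjusted p = 0.0586), and it passed in 7 of 17 alternatives. Eno3, the muscle form, was at 86.7, 92.7 and 103 CPM in control and 94.8, 98.2 and 96.9 CPM in itaconate libraries, inside the control range (0.04 ± 0.062, edgeR adjusted p = 0.751). Eno2, the neuronal form, was at 2.13 to 2.44 CPM in every library. Eno1b, an annotated Eno1 retrogene to which reads of Eno1 could be divided, was at 7.44 to 8.32 and 5.60 to 7.42 CPM.

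Pkm makes pyruvate and the second ATP. It was at 3747, 3811 and 3954 CPM in control and 3144, 3425 and 3307 CPM in itaconate libraries, a clear separation (-0.22 ± 0.047, edgeR adjusted p = 0.00709). The files are per gene, so the M1 and M2 splice forms were not analysed here. Ldha, which regenerates NAD+ by making lactate, was at 3610, 3744 and 4004 CPM in control and 3245, 3660 and 3522 CPM in itaconate libraries. Itaconate replicate 2 lay within the control range, and Ldha did not pass (-0.12 ± 0.054, edgeR adjusted p = 0.16). On log2(TPM + 1) values Ldha passed (limma, -0.22 ± 0.046, adjusted p = 0.046), as it did in 3 of 17 alternatives in all, and without the filter on low values it did not (limma adjusted p = 0.105). Without itaconate replicate 1 the value of Ldha was -0.08 (edgeR adjusted p = 0.448). Ldhb, whose enzyme favours lactate use, was at 7.59 to 8.06 and 7.99 to 8.46 CPM (edgeR adjusted p = 0.78).

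By reaction, the TPM of all listed genes of a step were summed. In each of the 11 reactions from glucose to lactate the itaconate libraries lay below the control libraries, by 9.06% at aldolase to 20.97% at triose phosphate isomerase, with a median of 16.3%. These sums were not tested. Among all tested genes taken singly, TPM did not overlap for 17.6% with itaconate lower and 8.83% with itaconate higher. In CPM the groups overlapped for Aldoa and Ldha, the most expressed genes of their steps. The median of all genes on the log2(TPM + 1) scale was itself -0.05, so the TPM values run somewhat lower than the CPM values of the same genes. The hexokinase step was the lowest expressed, at 152 ± 4.6 TPM in control and 124 ± 4.5 TPM with itaconate (SD over 3 libraries), and phosphofructokinase-1 followed at 365 ± 13 and 312 ± 8.4 TPM. The glyceraldehyde-3-phosphate dehydrogenase step was the highest, at 5667 ± 245 and 4576 ± 64.5 TPM, and lactate dehydrogenase was next, at 3672 ± 155 and 3158 ± 60.01 TPM, again as mean and SD over 3 libraries.

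**Figure D3:**
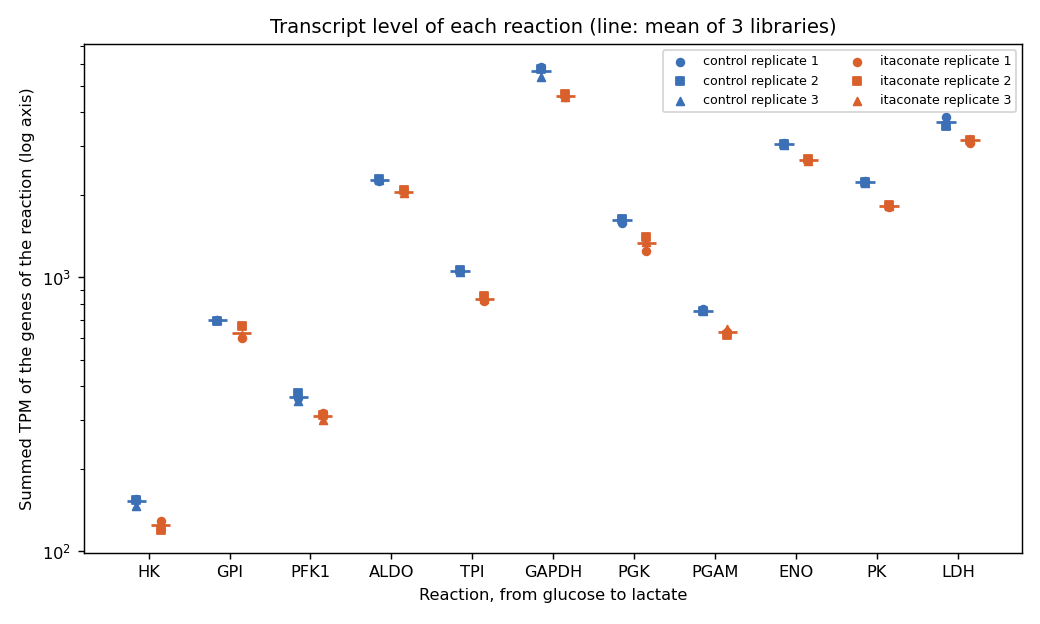
Summed TPM (log axis) of the listed genes of each reaction from glucose to lactate, with 3 control and 3 itaconate libraries and a line at each mean. All 11 reactions are lower in the itaconate libraries, and the order of the reactions by mean level is the same in both groups.

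Of the 10 members that handle sugar phosphates beside the main route or repair its side products, 2 fell, 1 rose and 7 did not pass, against 5.36% lower and 6.68% higher among all tested genes. Phosphoglucomutase links glucose 6-phosphate with glucose 1-phosphate, the entry to glycogen and UDP-glucose. Pgm1 (ENSMUSG00000025791, called Pgm2 in older mouse nomenclature) was at 114, 118 and 124 CPM in control and 86.3, 100 and 92.1 CPM in itaconate libraries. This is the lowest fitted value after Aldoc, and the call held without any 1 library (-0.35 ± 0.060, edgeR adjusted p = 0.00188). Pgm2 (ENSMUSG00000029171), whose enzyme acts mainly on pentose phosphates, did not pass (0.14 ± 0.092, edgeR adjusted p = 0.354), and neither did Pgm2l1, which makes glucose 1,6-bisphosphate (0.06 ± 0.097, edgeR adjusted p = 0.74).

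Ugp2 uses the glucose 1-phosphate that phosphoglucomutase makes, and its mRNA went the opposite way. It was at 29.6, 27.4 and 29.9 CPM in control and 37.3, 36.2 and 36.4 CPM in itaconate libraries. All itaconate values lay above all control values (0.34 ± 0.068, edgeR adjusted p = 0.00554). The call held without any 1 library but was lost on log2(TPM + 1) values (limma adjusted p = 0.111).

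Galactose enters through Galk1 and Galt, and neither passed. Galk1 was at 183 to 216 and 202 to 234 CPM (edgeR adjusted p = 0.252), and Galt at 12.8 to 13.1 and 13.5 to 14.9 CPM (edgeR adjusted p = 0.512). In the mannose branch, Mpi exchanges fructose 6-phosphate with mannose 6-phosphate, and Pmm1 and Pmm2 make mannose 1-phosphate for glycosylation. Pmm2 was at 49.1, 46.5 and 48.4 CPM in control and 44.0, 40.3 and 39.3 CPM in itaconate libraries. Its groups did not overlap (-0.22 ± 0.065, edgeR adjusted p = 0.0397), but Pmm2 kept its call in only 1 leave-one-out fit, that without itaconate replicate 1, and lost it in the other 5 (adjusted p 0.0705 to 0.162), with the effective length offset (0.129) and on log2(TPM + 1) values (limma, 0.0963). Mpi, at 12.7 to 13.5 and 11.5 to 15.4 CPM, and Pmm1, at 44.0 to 49.97 and 48.7 to 54.0 CPM, did not pass (edgeR adjusted p = 0.98 and 0.401). Pgp, which removes phosphoglycolate and other toxic side products of glycolysis, did not pass either (-0.06 ± 0.067, edgeR adjusted p = 0.661).

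Isozymes were compared as shares of the TPM of their family. The phosphoglucomutase family was taken as Pgm1, Pgm2 and Pgm2l1, whose enzymes differ in their main reaction as given above. Its shares thus compare related genes and not forms of the same enzyme. Pgm1 held 78.7%, 79.2% and 81.3% of the phosphoglucomutase level with NaCl and 73.2%, 75.2% and 73.2% with itaconate. Pgm2 held 15.4%, 13.8% and 13.2% in control and 17.6%, 18.7% and 19.9% in itaconate libraries. Neither share overlapped between the groups. In mean TPM, however, Pgm1 changed by -17.5 and Pgm2 by only 0.90, and the TPM of Pgm2 itself overlapped. The higher Pgm2 share thus came mainly from the lower Pgm1 level in the family sum. The log2 ratio of Pgm1 to Pgm2 changed by -0.52. Pfkm made up 3.34% ± 0.10 of the phosphofructokinase-1 level in control and 4.13% ± 0.12 with itaconate (SD, n = 3), while Pfkl went from 33.6% ± 0.92 to 31.9% ± 0.73, neither with overlap. Pmm1 held 57.8%, 63.3% and 60.4% of the phosphomannomutase level in control and 64.6%, 66.6% and 64.5% in itaconate libraries. Eno3 held 3.27% ± 0.24 and 3.72% ± 0.094 of enolase, and Aldoc 0.47% ± 0.021 and 0.28% ± 0.070 of aldolase. The TPM of Pfkm itself (means 12.2 and 12.9) overlapped between the groups, though its CPM did not. Those of Pmm1 (59.5 and 59.8) and Eno3 (100.2 and 99.5) overlapped in both measures. Their higher shares are thus relative to the other genes of the family.

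The hexokinases kept overlapping shares, with Hk1 between 57.2% and 62.8% under NaCl and between 61.8% and 62.6% under itaconate. In the PFKFB family Pfkfb1, which is not among the 35 genes, held 14.6%, 14.1% and 13.1% under NaCl and 17.6%, 21.2% and 20.9% under itaconate, without overlap, a larger shift in points than that of Pgm1. Its own CPM overlapped between the groups and did not pass (edgeR adjusted p = 0.418). Pfkfb3 held between 73.0% and 79.7% under NaCl and between 67.8% and 73.3% under itaconate, with overlap. Ldha held 99.67% to 99.73% of lactate dehydrogenase over the 6 libraries. Of 23 isozyme shares, 13 did not overlap between the groups, each with an exact permutation p of 0.1, the smallest that 3 against 3 libraries allow, and an adjusted p of 0.177. Of 21 pairs of isozymes compared as log2 ratios, 8 did not overlap (two-sided exact permutation p = 0.1, adjusted p = 0.263). This test cannot reach the threshold with 3 libraries a group, so these shifts are given as values. Shares of the same family are tied to each other, so the 13 are not independent shifts.

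**Figure D4:**
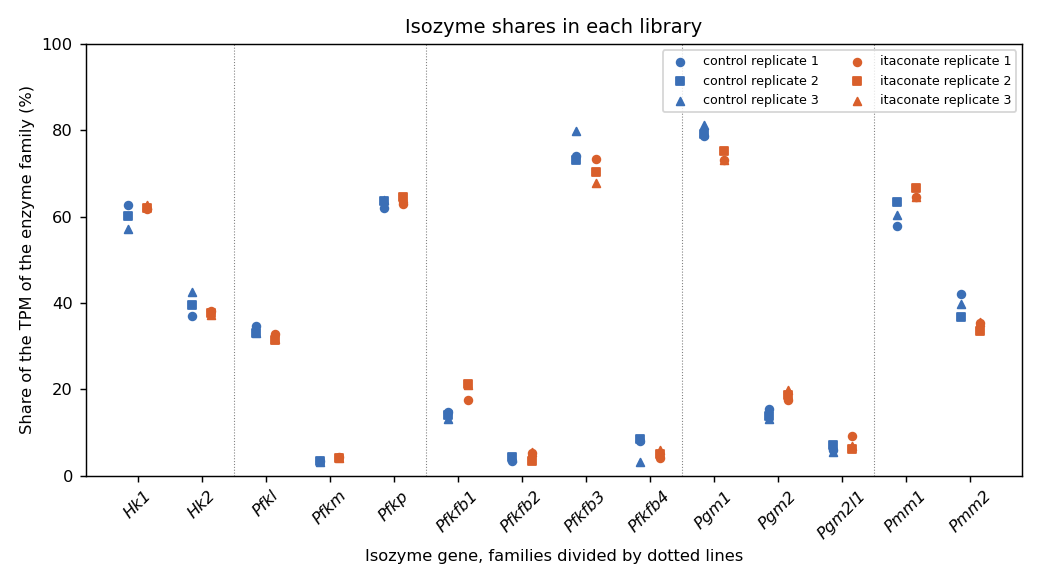
Share of each isozyme in the summed TPM of its family, in percent, in each of the 6 libraries (dotted lines divide the families). Pgm1 and Pgm2 separate by group, with Pgm1 lower and Pgm2 higher in the itaconate libraries, while the hexokinase shares overlap.

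Within the groups, itaconate replicate 1 was the lowest itaconate library for 9 of the 13 fallers and itaconate replicate 2 the highest for 8. Among the control libraries, replicate 1 was the lowest for 8 and replicate 3 the highest for 8. The difference between transcript length and effective length, which depends on fragment length, stood at 259 bases for control replicate 1 and ranged from 229 to 239 bases over the other 5. With effective length per library in the model, 9 members fell and 1 rose, and 4.59% of all genes were called.

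Neighbouring pathways were counted from lists in the same fit, and their counts of calls are to be read against the 5.36% lower and 6.68% higher of all tested genes. Of 13 pentose phosphate genes, 1 rose, Pgls, the lactonase of the oxidative branch, and none fell by this test (median log2 fold change 0.08). Pgls was at 75.1, 80.5 and 79.7 CPM in control and 97.9, 95.9 and 95.5 CPM in itaconate libraries, without overlap (0.30 ± 0.052, edgeR adjusted p = 0.00225). Of 22 tested genes of hexosamine and nucleotide sugar synthesis, 2 rose, Amdhd2 (0.49 ± 0.12, edgeR adjusted p = 0.0168) and Renbp (0.95 ± 0.28, edgeR adjusted p = 0.0379), and none fell by this test (median 0.06). Both enzymes act on amino sugars, as a deacetylase and an epimerase. Of 10 tested glycogen genes, 1 fell, the branching enzyme Gbe1 (-0.44 ± 0.098, edgeR adjusted p = 0.00999), and 1 rose, the phosphorylase Pygb (0.18 ± 0.047, edgeR adjusted p = 0.0241), with a median of 0.03. Of 9 tested genes of the triose and polyol side branches, 1 fell, Gpd2, the mitochondrial glycerol-3-phosphate dehydrogenase (-0.24 ± 0.060, edgeR adjusted p = 0.0198), and none rose by this test (median 0.13). Of 17 isozymes typical of other tissues or outside the members, 4 passed the filter on low counts (Pfkfb1, Hk3, Eno1b and G6pc3), and edgeR called 0 of these, with 0 at an unadjusted p under 0.05. G6pc3, a widely expressed glucose-6-phosphatase, was at 30.0 to 37.3 CPM over the 6 libraries, and 6 of the 17 were at 0 in all of them.

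The promoters of the members are shown because many of these genes are known targets of factors that bind ACGTG. Whether such factors have a part in the changes was not tested. In RefSeq's windows of 250 bases before to 50 bases after each start site (build GRCm38.p6), the letters ACGTG were searched on both strands. A match that is part of CACGTG, the E-box that MYC and related factors bind and that holds ACGTG on both strands, was counted once. All 35 members had a window, and 19 of them (54.3%) held a match in at least 1 window, against 29.9% of tested genes and 21.8% of all genes with a window. A match stood in 9 of the 13 fallers (69.2%) and in 10 of the other 22 members (45.5%), and CACGTG stood in 1 of the 13 and in 6 of the 22. These shares were not tested, and genes with several start sites have more windows. The sequences below are examples that lie upstream of the start site and outside annotated exons, and the capitals mark the match. Matches that meet the same conditions but are not printed stand in Pfkfb3, which fell, and in Pfkm, Pfkfb2, Aldoa and Pgm2, which did not pass. The other matches of Ldha are not printed either.
Pgk1, chrX:106186932-106186972, plus strand: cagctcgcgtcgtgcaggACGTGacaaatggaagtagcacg
Pgk1, chrX:106186951-106186991, plus strand: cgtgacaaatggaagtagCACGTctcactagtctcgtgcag
Hk2, chr6:82774484-82774524, minus strand: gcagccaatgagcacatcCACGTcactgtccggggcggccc
Hk2, chr6:82774658-82774698, minus strand: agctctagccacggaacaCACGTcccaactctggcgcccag
Pgam1, chr19:41911739-41911779, plus strand: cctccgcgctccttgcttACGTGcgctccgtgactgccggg
Ldha, chr7:46845738-46845779, plus strand: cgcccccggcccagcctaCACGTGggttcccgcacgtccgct
Ugp2, chr11:21371414-21371454, minus strand: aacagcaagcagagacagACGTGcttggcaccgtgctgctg
Pgk1 has its matches 150 and 131 bases before the start site, and Hk2 226 and 52 bases before it. Ldha, which did not pass, has 3 matches in this window, of which 2 are CACGTG. Ugp2, which rose, also has a match, and Tpi1, Pfkl, Pfkp and Pmm2, which fell, have none in their windows. A match says only that the letters are there.

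In the GENCODE M21 annotation of GRCm38, Gapdh (ENSMUSG00000057666) lies on chromosome 6 at 125161715 to 125166467, Tpi1 (ENSMUSG00000023456) on chromosome 6 at 124810586 to 124814296, and Hk2 (ENSMUSG00000000628) on chromosome 6 at 82725025 to 82774454. Pgm1 lies on chromosome 4 at 99929414 to 99987294 and Ugp2 (ENSMUSG00000001891) on chromosome 11 at 21321138 to 21371201. Each of the 5 is annotated as a protein-coding gene. Of the 36 rows, 18 overlap a gene on the other strand, among them Gapdh with Iffo1, Tpi1 with Spsb2, Pgm1 with Itgb3bp and Ugp2 with Gm12043. The strand setting of the counting is not given in the sources used here, so reads of such partners may be mixed. Of the 35 tested members, 10 had an expected count that was not whole (further than 0.001 from a whole number) in at least 1 library, Gapdh, Pgk1, Eno1 and Pkm among them. Counts of genes with processed pseudogenes depend on how reads were divided.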

How the data were processed

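RNA-seq of 3 control and 3 itaconate libraries of mouse CD8+ T cells was used. Per the file headers, the authors deposited gene tables with expected counts, which are estimated counts per gene and not normalised. The columns are those that RSEM writes, and no header names the program. The same tables hold TPM, per the file headers, which by definition are scaled for length and to a common sum. Transcript length and effective length, other columns deposited by the authors, were used as bases. Bowtie 0.12.2 and the builds mm8 and mm10 stand in the submitters' processing notes. The sources used here give no counting program or version, annotation or strand setting. Of 55487 identifiers, 55394 were found in GENCODE M21.

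Expected counts were rounded. Genes passing edgeR's expression filter (minimum count 10, minimum total 15; 12350 genes) entered the quasi-likelihood test of edgeR 4.0.16 under R 4.3.3 (TMM factors, robust, two-sided), with Benjamini-Hochberg adjustment over all of them and a threshold of 0.05. CPM used TMM-scaled library sizes. Isozyme shares and ratios were compared with exact permutation tests (scipy 1.17.1). DESeq2 1.42.0, limma 3.58.1 on log2(TPM + 1) and log2(TPM + 0.1) with genes at 1 TPM in 3 libraries, other normalizations and filters, an effective length offset, a replicate block and leaving out each library were tried.

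The members and lists were chosen with earlier results of these data known. All members could be named. Other genes were named if they were isozymes, markers, or, within a list, among the 2 lowest adjusted p in each direction. G6pc3 was named after its values were seen. The test was checked on simulated data with the same variability for all genes. It recovered 18 of 50 planted changes of 1.25-fold, 40 of 50 of 1.5-fold and 50 of 50 of 2-fold. No pair of libraries looked like a copy (chi-square per gene 4.84 to 16.9, where sampling noise gives about 1).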

Additional observations from a re-analysis of the deposited data

How the results depend on the processing

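The count of 13 fallers ran from 8 to 11 when 1 library was left out (8 without control replicate 2 and 8 without itaconate replicate 3) and the count of risers was 1 in each case. In these fits 5.7% to 11.2% of all tested genes were called in either direction. With DESeq2, edgeR's RLE factors, plain library size or no low-count filter, 15 fell and 1 rose. Each of these kept all 14 calls of the main test and added Gpi1 and Eno1. Of all tested genes they called 11.6%, 11.9%, 11.7% and 9.07%, in that order. limma on log2(TPM + 1) or log2(TPM + 0.1) called 11 lower and 0 higher, and limma on log2(TPM + 1) without a filter 3 lower and 0 higher. The 11 were 9 of the main fallers with Ldha and Eno1 added, while Hk1, Pfkp, Pfkfb3, Pmm2 and the riser Ugp2 were lost. Of all tested genes these fits called 2.84%, 2.72% and 0.268%, in that order. Over all genes, 567 passed with the effective length offset, 319 with limma on log2(TPM + 1) and 59 without its filter, 726 without control replicate 2, 896 without itaconate replicate 2 and 835 without itaconate replicate 3, against 1487. Of 14 called members, 8 kept their call without any 1 library and 3 in all 17 alternatives.

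The replicate block gave 16 fallers and 2 risers, and with the effective length offset 9 and 0. Of all tested genes these fits called 19.6% and 4.84%. Ldha (adjusted p = 0.0438), Gpi1 (0.0198), Eno1 (0.0224) and Galk1 (0.0488) passed with the block without that offset. Deviations of same-numbered libraries correlated at 0.193, 0.051 and 0.0459 across genes. These values do not establish a pairing, the labels give none, and whether same-numbered libraries share a source was not settled. Control replicate 3 correlated best with itaconate replicate 2 (0.131). The block raised all calls to 2419.

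No called member changed sign in any alternative. Members that did not pass did, among them genes near zero and genes with large standard errors such as Pfkfb2 and Pfkfb4. On log2(TPM + 1), with or without a filter, the values were Ldhb -0.053, Pgm2l1 -0.046, Mpi -0.13 and Eno3 -0.0072, and on log2(TPM + 0.1) they were -0.058, -0.055, -0.14 and -0.0072. Mpi was at -0.015 with plain library size. With the effective length offset Mpi was at -0.072 and Pfkfb2 at 0.064, and with the block added at -0.0785 and 0.049. Leaving out 1 library, the values ran from -0.305 to 0.163 for Pfkfb4, -0.030 to 0.114 for Pgm2l1, -0.114 to 0.103 for Mpi, -0.020 to 0.099 for Eno3 and up to 0.021 for Bpgm, from -0.14. From CPM in place of TPM, the itaconate minus control difference in share was 0.368 points for Pfkfb4 and 0.003797 for Eno2. From TPM these were -1.50 and -0.0031. The difference in log2 ratio from CPM was 0.0104 for Hk2/Hk3, -0.112 for Pfkfb2/Pfkfb4, -0.2345 for Pfkfb3/Pfkfb4 and -0.102 for Eno1/Eno2. From TPM these were -0.00085, 0.467, 0.157 and 0.144. Leaving out 1 library, the differences in share ran from -0.0647 to 0.157 points for Hk3 and -0.0154 to 0.0172 for Eno2. The differences in log2 ratio ran from -0.661 to 0.803 for Hk1/Hk3, -0.799 to 0.678 for Hk2/Hk3 and -0.129 to 0.677 for Pfkfb3/Pfkfb4. They ran from -0.297 to 0.394 for Eno1/Eno2 and -0.590 to 0.0805 for Eno2/Eno3. The causes were not tested. With 3 libraries a group, small changes can be missed.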
